A study of Mus musculus with 28 samples.

Results

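Among 4621 wells that each held a hepatocyte sorted together with an attached CD31+ cell, 469 pairs were chosen as high and 2316 as low by their share of 8 immediate early transcripts. The share was the summed UMIs (unique molecular identifiers, each standing for 1 captured mRNA molecule) of Fos, Fosb, Jun, Junb, Egr1, Ier2, Btg2 and Zfp36, divided by all gene UMIs of the pair. Pairs in the highest 10% of this share were set against pairs in the lower 50%, within each block of consecutive well numbers the size of a plate, and 1836 pairs lay between them. The series held 8341 wells in all, the other 3720 being single non-parenchymal cells.

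The pairs came from 17 libraries of 3 male C57BL/6 mice aged 6 to 7 weeks. All mice of the series, also the 2 aged 3 and 4 months that gave the single cells, were kept on a reversed light cycle, were fasted for 2 hours from 7AM and were anaesthetised with ketamine and xylazine before their livers were perfused with a collagenase (Liberase Blendzyme or Collagenase D). No animal was given a treatment meant to induce these genes, so high and low pairs had the same genotype, fasting and anaesthesia. Which collagenase was used for a given pair cannot be told. Libraries were made from mRNA 3' ends by MARS-seq, and because no source ties a well to a library or a mouse, all pairs formed 1 sample and no test across mice was made.

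Immediate early genes are transcribed within minutes of a stimulus from factors already present in the cell, and most of their mRNAs are short-lived. Fos, Fosb, Jun and Junb encode subunits of the AP-1 transcription factor and Egr1 a zinc-finger transcription factor, while Ier2 is a nuclear early response protein, Btg2 an antiproliferative cofactor of mRNA deadenylation, and Zfp36 (tristetraprolin) a protein that binds AU-rich elements and speeds decay of the mRNAs that carry them. In liver these genes are known to be induced by partial hepatectomy, by cytokines and by the enzymatic dissociation of the tissue.

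The promoter windows of the 4 rule genes below are shown because Jun, Zfp36 and Btg2 held most of the rule UMIs and Fos is the gene by which the response is best known. Each runs from 250 bases before the RefSeq transcript start to 50 after it, 5' to 3' on the gene's strand, in build GRCm38.p6: chr12:85473640-85473939 (+ strand) for Fos, chr4:95052173-95052472 (- strand) for Jun, chr1:134079106-134079405 (- strand) for Btg2 and chr7:28379179-28379478 (- strand) for Zfp36. Capitals mark the letters searched on both strands, which were the cAMP response element TGACGTCA, its shorter form TGACG, the AP-1 element TGANTCA, the EGR element GCGNGGGCG, the TATA box TATAAA and the CArG box bound by serum response factor.
Fos: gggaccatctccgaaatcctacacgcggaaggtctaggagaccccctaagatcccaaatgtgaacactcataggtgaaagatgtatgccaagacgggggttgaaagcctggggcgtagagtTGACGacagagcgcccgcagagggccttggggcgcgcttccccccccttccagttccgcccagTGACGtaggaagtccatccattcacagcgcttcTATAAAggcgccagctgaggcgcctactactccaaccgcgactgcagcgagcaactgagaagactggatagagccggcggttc
Jun: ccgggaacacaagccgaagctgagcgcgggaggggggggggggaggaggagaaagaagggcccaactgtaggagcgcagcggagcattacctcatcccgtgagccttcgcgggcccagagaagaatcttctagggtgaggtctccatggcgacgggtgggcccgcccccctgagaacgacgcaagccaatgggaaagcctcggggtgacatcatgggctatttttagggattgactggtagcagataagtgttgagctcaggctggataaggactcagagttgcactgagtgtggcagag
Btg2: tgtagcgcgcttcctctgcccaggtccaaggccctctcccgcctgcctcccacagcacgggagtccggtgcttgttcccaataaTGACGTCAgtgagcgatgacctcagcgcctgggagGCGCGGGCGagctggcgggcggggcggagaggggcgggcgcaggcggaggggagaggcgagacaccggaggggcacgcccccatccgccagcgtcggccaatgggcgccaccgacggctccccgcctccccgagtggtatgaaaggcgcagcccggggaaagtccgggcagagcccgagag
Zfp36: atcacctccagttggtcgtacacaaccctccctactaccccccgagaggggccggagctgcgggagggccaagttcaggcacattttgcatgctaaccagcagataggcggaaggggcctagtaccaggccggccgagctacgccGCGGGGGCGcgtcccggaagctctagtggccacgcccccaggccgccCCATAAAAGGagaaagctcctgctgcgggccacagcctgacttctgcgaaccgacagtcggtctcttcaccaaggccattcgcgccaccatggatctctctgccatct

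RefSeq windows were matched for 6 of the 8 rule genes, and Egr1 and Ier2 were not among them. TGACGTCA was found in the Btg2 window, against 1.79% of 32851 mouse windows of the same length, and a CArG box in the Zfp36 window, against 1.63%. TGACG, which TGACGTCA contains, occurred in the windows of Btg2, Fos, Fosb and Junb, against 20.8% of all windows. GCGNGGGCG occurred in those of Btg2, Fosb and Zfp36 (5.55% of all windows), TATAAA in those of Fos and Junb (13.6%) and TGANTCA in none of the 6 (7.81%). The Jun window held none of the letters searched. A match here is a stretch of letters and not a measured binding site.

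The rule set its groups on few molecules. A high pair held a median of 6 rule UMIs (range 2 to 30) among a median of 8538 gene UMIs, and a low pair a median of 1 (range 0 to 12) among 9919.5. The median share was 678 UMIs per 1000000 gene UMIs in high pairs and 131 in low pairs, and 664 low pairs (28.7%) held no rule UMI. In the 15 blocks with at least 100 pairs, the lowest share inside the high group ran from 436 to 671 per 1000000 and the highest share just outside it from 435 to 666. High pairs were shallower than low pairs by their median gene UMIs in 10 of these 15 blocks. Their median share of spike-in UMIs was 0.886%, against 0.807% in low pairs, so the median high pair had fewer gene UMIs per spike-in UMI. Gene UMIs are the divisor of the share, so the choice itself bears on depth, and both depth measures describe the choice. For genes outside the rule, a larger share of a transcript and a smaller total of other RNA cannot be told apart by these shares. Over all pairs of a block, the variance of rule UMIs was 1.15 to 1.97 times what counting error alone gives at the pairs' depths (median 1.54).

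The high pairs were Jun and Zfp36 pairs more than Fos pairs. Jun made up 37.1% of the rule UMIs in high pairs and 33.7% in low pairs, and Zfp36 27.1% in high and 33.1% in low pairs. Btg2 followed with 13.4% in high and 13.8% in low pairs, while Fos gave 2.22% in high and 1.85% in low pairs. Jun was the leading rule gene in 177 of the 469 high pairs, Zfp36 in 112, Btg2 in 33, Egr1 in 13, Ier2 in 10, Junb in 4 and Fos in 3, with 117 ties. A Jun UMI was seen in 392 high pairs and an Egr1 UMI in 125, but a Fos UMI in only 57 and a Fosb UMI in 4. Most high pairs held UMIs of 2 genes (118 pairs), 3 genes (142 pairs) or 4 genes (107 pairs), 30 pairs held a single rule gene, and none held all 8.

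Levels below are UMIs summed over the pairs of a group per 1000000 gene UMIs without the 8 rule genes, and log2 ratios are high over low pairs, with 95% intervals that cover counting error only. For the rule genes they describe the choice and are no finding. Among the AP-1 subunits, Jun was at 258 per 1000000 in high pairs and 47.5 in low pairs. Over the 15 blocks its level ran from 127 to 463 (median 262) in high pairs and from 20.1 to 74.5 (median 44.7) in low pairs, with no overlap. Junb ran from 9.90 to 86.4 (median 38.9) in high pairs and from 1.22 to 14.997 (median 7.21) in low pairs, so the lowest blocks of the high pairs overlapped the low pairs. Fos ran from 4.07 to 32.3 (median 16.6) in high pairs and from 0 to 4.45 (median 2.41) in low pairs, on 76 and 70 UMIs in all. Fosb rested on 4 UMIs in high pairs and 2 in low pairs and is not described further.

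Apart from Fosb, Egr1 had the largest ratio, with 46.4 per 1000000 in high pairs (12.9 to 81.8 over the blocks) and 4.83 in low pairs (2.18 to 8.12), a 9.60-fold ratio. Zfp36, at 189 in high pairs (144 to 281) and 46.6 in low pairs (27.5 to 57.7), had the smallest ratio of the 8 at 4.04-fold. Btg2 was at 93.4 in high pairs (63.5 to 127) and 19.4 in low pairs (11.1 to 33.0), and Ier2 at 55.5 in high pairs (35.8 to 90.6) and 11.9 in low pairs (5 to 16.996). Apart from Junb, Fos and Fosb, no block of the high pairs overlapped any block of the low pairs, which the choice within blocks favours.

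**Figure D1:**
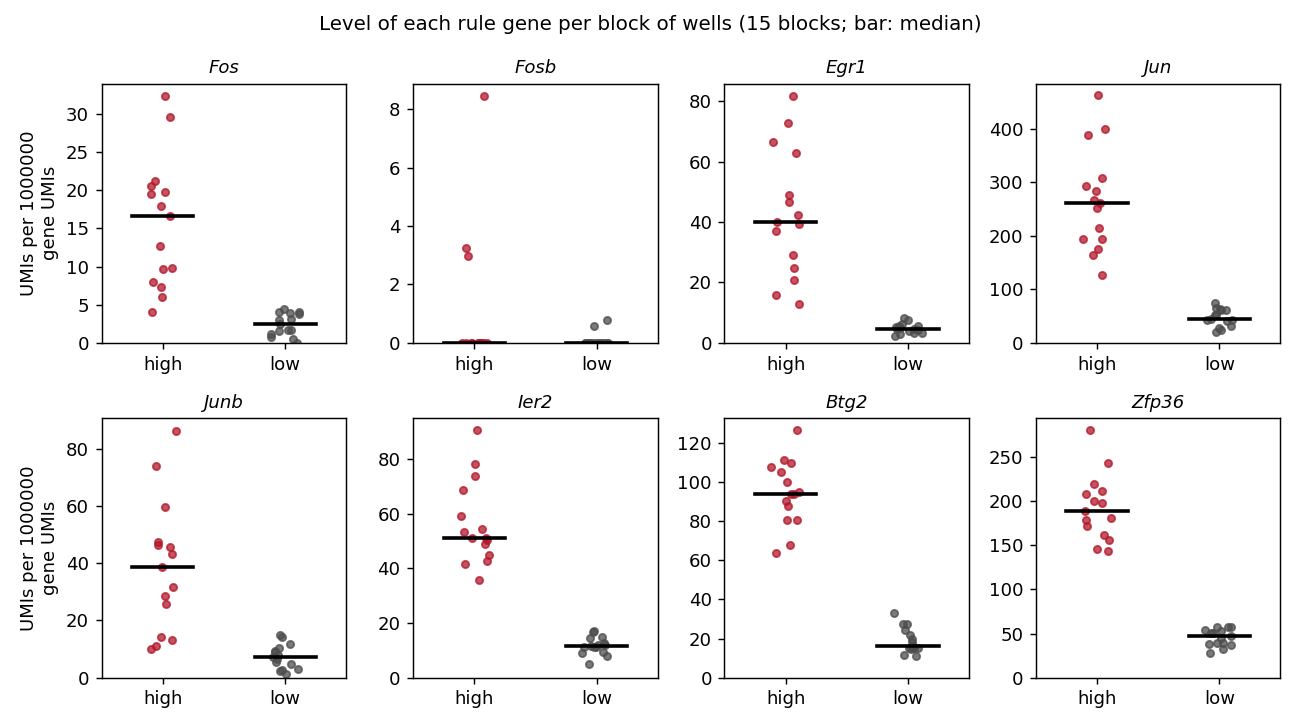
Level of each rule gene, in UMIs per 1000000 gene UMIs without the rule genes, in high pairs (left, red) and low pairs (right, grey); each point is 1 of 15 blocks of well numbers with at least 100 pairs, and the bar is the median over blocks. Jun has block medians of 262 in high and 44.7 in low pairs, and Fosb is at 0 in most blocks of both groups.

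Because the same molecules chose the pairs and gave these ratios, each gene was also measured on molecules the choice had not used. The UMIs of every pair were split at random into 2 parts at even odds, the pairs were chosen on 1 part, and the levels were read in the other. The 8 genes together were then at 408 per 1000000 in high pairs and 254 in low pairs, a 1.61-fold ratio (log2 0.68, interval 0.58 to 0.79), against 4.94-fold (log2 2.30, 2.24 to 2.37) when the same molecules were used for both. With the parts swapped the ratio was 1.59-fold. These ratios belong to pairs chosen on fewer molecules, and so less precisely, than the 469 described above. In molecules left out of the choice the ratio was thus under 2-fold for the 8 genes together. The 469 pairs themselves were not measured on unused molecules, so whether the name "strong" suits them is not settled.

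Egr1 kept the largest remeasured ratio among the 7 genes other than Fosb. It was at 33.3 per 1000000 in high pairs and 10.1 in low pairs in the unused part, a 3.30-fold ratio (log2 1.72, interval 1.31 to 2.13), and 2.37-fold with the parts swapped. Jun was at 149 in high pairs and 84.5 in low pairs, 1.77-fold (log2 0.82, 0.65 to 0.99), and 1.82-fold with the parts swapped. Fos was at 10.7 in high pairs and 5.79 in low pairs, 1.84-fold (log2 0.88, 0.18 to 1.54), on 26 and 77 UMIs. The ratios of the other rule genes were smaller: 1.58-fold for Junb, 1.498-fold for Ier2, 1.39-fold for Zfp36 and 1.27-fold for Btg2, or 1.54, 1.63, 1.23 and 1.59-fold with the parts swapped.

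A second measurement left each gene out of its own choice, ranking the pairs by the other 7 genes. Egr1 was then at 24.1 per 1000000 in high pairs and 10.5 in low pairs (2.30-fold), and Fos at 8.42 in high pairs and 4.86 in low pairs (1.73-fold). Junb had a 1.56-fold ratio, Ier2 1.55-fold and Btg2 1.35-fold. Jun and Zfp36, the most abundant of the 8, gave the smallest ratios, 1.29-fold (log2 0.36, interval 0.23 to 0.50) and 1.17-fold (log2 0.22, 0.08 to 0.36). The 7 genes other than Fosb had intervals above 0 under all 3 of these measurements.

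**Figure D2:**
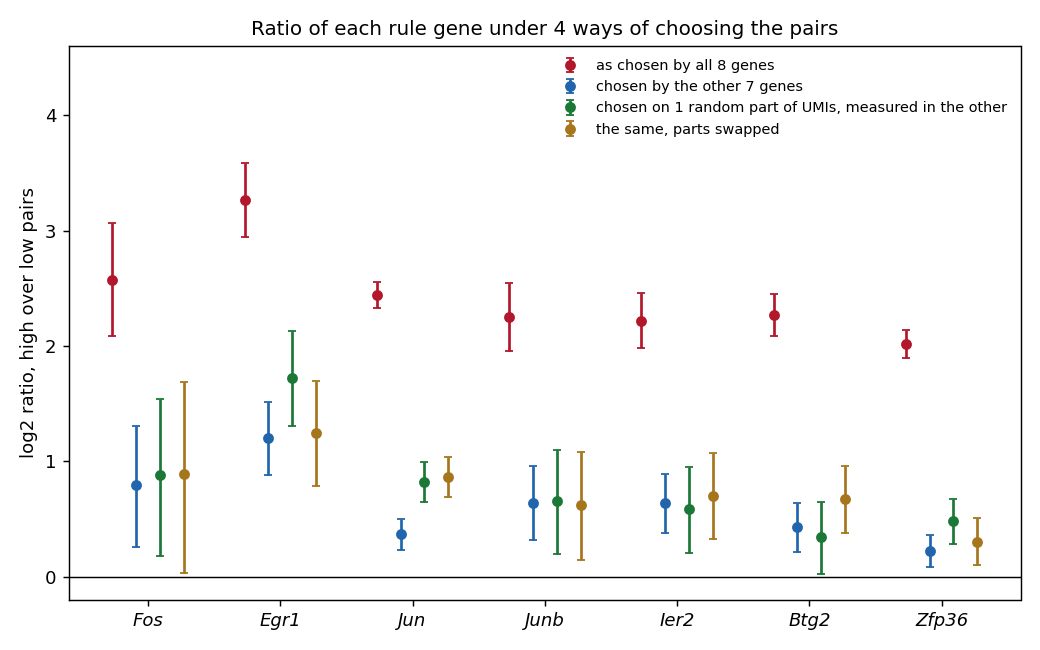
Log2 ratio of high over low pairs for 7 rule genes with 95% counting intervals, under 4 ways of choosing the pairs: by all 8 genes (red), by the other 7 genes (blue), on 1 random part of each pair's UMIs with levels from the other part (green), and with the parts swapped (brown); Fosb, with 4 UMIs in high and 2 in low pairs, is not drawn. Egr1 lies at 3.26 when its own molecules took part in the choice and between 1.20 and 1.72 otherwise.

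Pooled over the blocks, high pairs were spread along the porto-central axis of the lobule, but their position differed from block to block. By a score of pericentral against periportal hepatocyte landmark genes, 35.2% of high pairs and 34.3% of low pairs fell in the periportal tertile of all pairs, and 34.1% of high pairs and 32.0% of low pairs in the pericentral tertile. These pooled shares average opposite skews. In 8 blocks (3 to 9 and 41) the high pairs were the more periportal by their median score, 0.15 to 0.37 in high pairs and 0.42 to 0.75 in low pairs on a scale that runs from 0 (periportal) to 1 (pericentral), and 53.8% of high pairs and 35.6% of low pairs there were in the periportal tertile. In the other 7 (10 to 16) they were the more pericentral, with medians of 0.74 to 0.91 in high pairs and 0.58 to 0.78 in low pairs, and 55.1% of high pairs and 34.5% of low pairs were in the pericentral tertile. The order of these blocks matches the listed order of the libraries from 1 mouse (3 to 9 and the last) and from another (10 to 16). No source ties blocks to libraries, so this match was not tested, and a count of blocks is not a count of mice. The innermost pericentral pairs, the highest 5% of the score, made up 8.32% of high pairs (39 pairs, exact 95% interval 5.98 to 11.2%) and 4.06% of low pairs (94 pairs, 3.29 to 4.94%). These shares are pooled, and their intervals cover counting error over wells only, not the differences between blocks. The summed level of the pericentral landmarks was higher in high pairs in 7 of 15 blocks. The rule genes themselves were not zoned alike, which can be read over all pairs without any choice by these genes. Over all 4621 pairs, Egr1 was at 23.5 per 1000000 periportally, 9.49 in the middle tertile and 7.81 pericentrally, and Fos at 8.49, 5.20 and 3.70. Jun ran the other way, at 70.2 periportally, 101 in the middle tertile and 127 pericentrally, and Zfp36 less steeply, at 83.2, 91.8 and 100.0. Junb was nearly level, at 16.1, 14.9 and 15.97.

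The opposition of Egr1 and Fos to Jun was also seen within blocks. Over all pairs of a block, Egr1 was lower in pericentral than in periportal pairs in 15 of 15 blocks, with block medians of 6.66 pericentrally and 24.3 periportally, and Fos in 13 of 15. Jun was higher in pericentral pairs in 14 of 15 blocks, with block medians of 111 pericentrally and 68.3 periportally. Zfp36 was higher there in 9 of 15 blocks, which were all of blocks 10 to 16 but only blocks 5 and 9 of the others. In block 10 Zfp36 was at 130 pericentrally and 53.9 periportally, and in block 4 at 96.6 and 118. The pooled gradient of Zfp36 thus holds different directions in different blocks. Within the high pairs the levels are a description, since a pair chosen on the sum and poor in 1 rule gene had to be rich in another. Egr1 was at 80.5 per 1000000 in the 165 periportal high pairs, 33.8 in the 144 middle ones and 23.9 in the 160 pericentral ones, while low pairs held 7.47, 4.03 and 2.93. Jun was at 154, 272 and 344 in the same order of high pairs, and at 37.1, 49.5 and 56.2 in low pairs. Fos was at 23.3, 16.9 and 7.06 in high pairs and at 4.50, 1.57 and 1.69 in low pairs, and Ier2 at 55.4, 55.9 and 55.4 in high pairs. Because position among high pairs went with the block, these pooled values hold differences between blocks as well.

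Across all other genes the high and low pairs differed little. Of 7830 genes outside the rule with at least 200 UMIs over both groups, 63 (0.805%) were at least 1.5-fold higher in high pairs and 12 (0.153%) at least 1.5-fold lower. The median log2 ratio was 0.05, and 95% of genes lay between -0.31 and 0.44. Poisson intervals of the levels in high and low pairs did not overlap for 5.73% of genes on the higher side and 1.8% on the lower side.

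**Figure D3:**
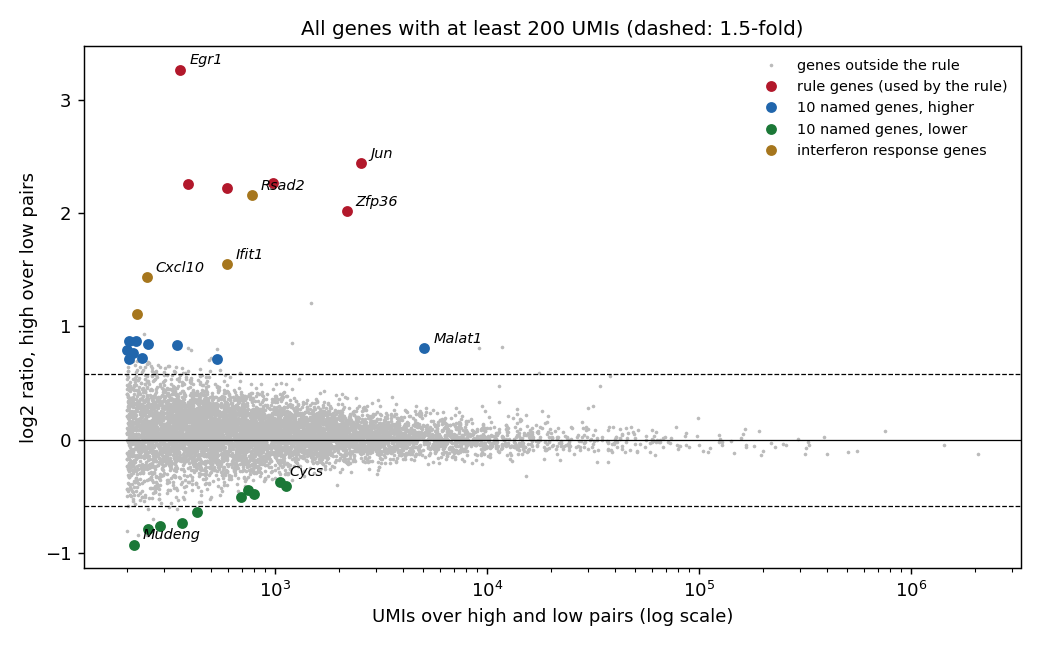
Log2 ratio of high over low pairs against UMIs over both groups (log scale) for genes with at least 200 UMIs; red points are rule genes past that minimum, whose ratios the choice sets, blue and green points the 10 named genes each way, brown points interferon response genes, and dashed lines 1.5-fold. Most of the 7830 genes outside the rule lie close to their median of 0.05, and Malat1 stands out among the abundant ones at 0.81.

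Transcription factors of the same families as the rule genes were moderately higher by their median, and none with at least 200 UMIs reached 1.5-fold, as 0.805% of all genes tested did. Of 14 other AP-1, EGR and NR4A genes, 5 had at least 200 UMIs, with a median log2 ratio of 0.36 against 0.05 for all genes tested. Their summed UMIs were higher in high pairs in 12 of 15 blocks. Jund, an AP-1 subunit expressed without stimulation, ran from 21.1 to 124 per 1000000 over the blocks of high pairs (median 64.1) and from 25.1 to 93.7 in low pairs (median 44.6). These ranges overlapped almost fully, and the summed ratio was log2 0.43 (interval 0.25 to 0.60), with the pooled direction in 13 of 16 blocks that held at least 10 of its UMIs. Mafg, a small Maf protein that pairs with other leucine-zipper factors, had log2 0.31 (0.15 to 0.48). Maff (0.50, -0.03 to 0.99) and the orphan nuclear receptor gene Nr4a1 (0.36, -0.16 to 0.85) had 42 UMIs each in high pairs and intervals that included 0. Fosl2, a further AP-1 subunit, was at -0.14 (-0.67 to 0.36). Atf3, a stress-induced partner of Jun named here after its values were seen, fell under the minimum with 47 UMIs in high pairs and 133 in low pairs, and had log2 0.95 (0.44 to 1.44), with the pooled direction in 5 of 8 blocks. Egr2, Egr3 and Egr4 had no UMI in either group, and Fosl1 and Nr4a3 no UMI in high pairs and 1 each in low pairs.

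Effector genes of the early response lay on the same side. All 15 of the 24 listed effectors that passed the UMI minimum had a ratio above 0, as 61.6% of all genes tested did, 14 of them above the median of all genes, and their median log2 ratio was 0.36. None of the 15 reached 1.5-fold. Per1, a clock repressor that is also induced acutely, was at 26.4 per 1000000 in high pairs (4.93 to 45.3 over the blocks) and 17.9 in low pairs (10.6 to 29.5), log2 0.56 (interval 0.27 to 0.84), with the pooled direction in 14 of 15 blocks. Rhob, an early-induced small GTPase, had log2 0.48, Tiparp, an ADP-ribosyltransferase, 0.41, and Cyr61, a matricellular growth regulator, 0.41, with intervals that included 0. The median of these effectors was 0.08 when the pairs were chosen on 1 random part of their UMIs and measured in the other, 0.22 with the parts swapped, and 0.08 when every pair was thinned to 5000 UMIs.

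Other early transcription factors and feedback genes moved less. The 18 KLF and other early factors past the minimum, of 19, had a median log2 ratio of 0.18, led by the Notch-responsive repressor Hes1 (0.57, interval 0.12 to 1.01), the BMP-responsive Id1 (0.52, 0.05 to 0.96), and the Krüppel-like factors Klf10 (0.45, 0.02 to 0.85) and Klf6 (0.42, -0.02 to 0.84). The growth-promoting factor Myc was at -0.05 (-0.34 to 0.24). Hes1 was at -0.04 when the pairs were chosen on the other part of their UMIs. The 15 MAP kinase phosphatases and signal feedback genes past the minimum, of 25, had a median of 0.09. Among them Sik1, a kinase induced by cAMP, had log2 0.51 (0.14 to 0.87), and the phosphatases Dusp1 and Dusp6 had 0.30 (0.15 to 0.45) and 0.26 (0.07 to 0.44). Dusp1, which inactivates MAP kinases, was at 93.2 per 1000000 in high pairs (44.5 to 115 over the blocks) and 75.6 in low pairs (46.5 to 101), so its blocks overlapped, and its ratio was 0.01 with the pairs thinned to 5000 UMIs.

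**Figure D4:**
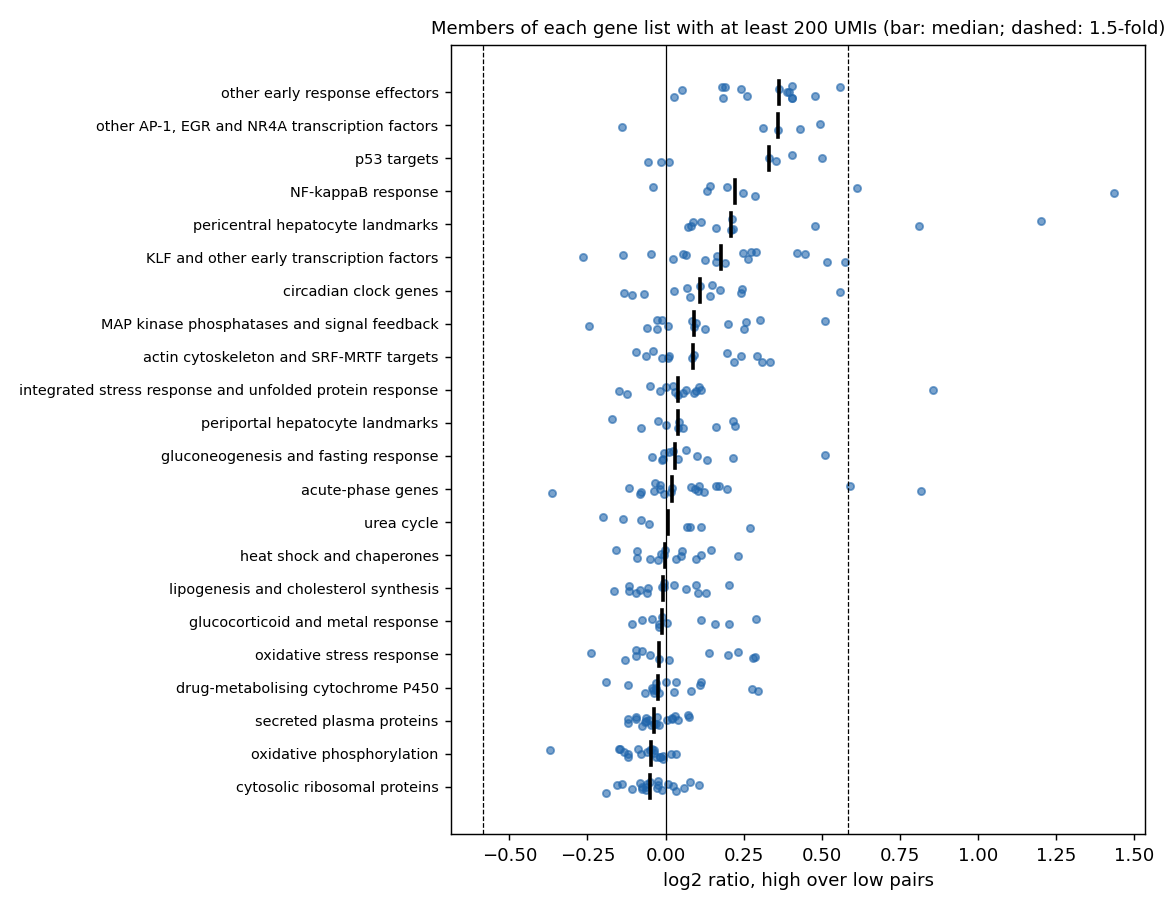
Log2 ratio of high over low pairs for the members of each gene list with at least 200 UMIs over both groups (points) and their median (bar), for lists with at least 5 such members; dashed lines mark 1.5-fold. The interferon list, compiled after its values were seen, is not drawn. Among the lists drawn, those of other early effectors and of other AP-1, EGR and NR4A factors have the highest medians, 0.36 each, and oxidative phosphorylation and ribosomal protein genes the lowest, -0.05 each.

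Several stress programmes were measured beside the early genes, and most sat at the median of all genes. The 15 heat shock and chaperone genes past the minimum had a median log2 ratio of 0.00, and the inducible chaperone Hspa1b, whose reads can be shared with its near-identical copy Hspa1a, was at -0.16 (interval -0.44 to 0.11). Medians were 0.04 for the integrated stress and unfolded protein responses, -0.01 for glucocorticoid and metal response genes, -0.02 for oxidative stress genes and 0.02 for acute-phase genes. The 14 actin and SRF-MRTF genes past the minimum had a median of 0.09. The 7 p53 targets past the minimum stood at 0.33, with the pro-apoptotic Bax at 0.50 (0.16 to 0.83) and the p53 ubiquitin ligase Mdm2 at 0.33 (0.05 to 0.60); 2 of the 7 were below 0, and the summed log2 ratio was 0.13 (0.03 to 0.23). The 8 NF-kappaB response genes stood at 0.22, of which 2, Cxcl10 and Lcn2, passed 1.5-fold (0.805% of all genes tested) and are described with the pairs that carried them.

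One member of the stress lists, Gdf15, stood apart. Gdf15, a secreted TGF-beta family cytokine induced by cell stress, ran from 16.3 to 144 per 1000000 over the blocks of high pairs (median 58.2) and from 17.1 to 49.5 in low pairs (median 33.7). Its summed level was 60.8 in high pairs and 33.6 in low pairs, log2 0.86 (interval 0.66 to 1.05), with the pooled direction in 11 of 16 blocks. Along the rule share it was 37.7 in pairs between the 50th and 75th percentile and 46.6 between the 75th and 90th, so it was higher in each step. Gdf15 kept log2 0.85 when the pairs were chosen on the other part of their UMIs, and had 0.35 when Jun was left out of the choice.

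The lists of hepatocyte function were close to level by their medians, with members both lower and higher in high pairs. Of 20 oxidative phosphorylation genes all lay below the median of all genes, and 18 had a ratio below 0, as 38.4% of all genes tested did (median log2 ratio -0.05). Cycs, encoding cytochrome c, was at 26.7 per 1000000 in high pairs and 34.4 in low pairs, log2 -0.37 (interval -0.64 to -0.10). Of 21 secreted plasma protein genes 14 had a ratio below 0 (38.4% of all genes tested), and their summed level was higher in high pairs in 7 of 15 blocks. Alb and Ttr, the genes of albumin and transthyretin, were both at -0.12, with the pooled direction in 8 of 17 blocks for Alb and 14 of 17 for Ttr. The mitochondrial ornithine carrier gene Slc25a15 was at 237 in high pairs and 272 in low pairs (log2 -0.20, -0.29 to -0.11), with the pooled direction in 17 of 17 blocks, and at 0.00 when pairs were thinned to 5000 UMIs. Medians were -0.05 for ribosomal protein genes, -0.03 for drug-metabolising cytochromes P450, -0.01 for lipogenesis, 0.01 for the urea cycle and 0.03 for gluconeogenesis and fasting genes. Of the 18 listed P450 genes 8 were above 0 and 10 below, and of 8 urea cycle genes 4 and 4 (61.6% and 38.4% of all genes tested). The urea cycle gene Nags was at 0.27 (0.08 to 0.46), with the pooled direction in 14 of 16 blocks. Cyp2a5 and Cyp2c37 were at 0.30 and 0.28, each with the pooled direction in 8 of 17 blocks.

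Of 7 listed long RNAs retained in the nucleus, 2 passed the UMI minimum, and both were at least 1.5-fold higher in high pairs (0.805% of all genes tested). Malat1, an abundant noncoding RNA of nuclear speckles, had 1228 UMIs in high pairs and 3832 in low pairs. Over the blocks it ran from 109 to 605 per 1000000 in high pairs (median 190) and from 71.1 to 214 in low pairs (median 147). The ranges overlapped, and the summed levels of 250 in high and 142 in low pairs gave log2 0.81 (interval 0.72 to 0.90), with the pooled direction in 14 of 16 blocks. Neat1, the RNA scaffold of nuclear paraspeckles, was at 19.7 in high pairs and 11.4 in low pairs, log2 0.79 (0.45 to 1.12). Malat1 had log2 0.66 in the unused part of the UMIs and 0.34 with the pairs thinned to 5000 UMIs. Malat1 did not follow the rule share step by step as Gdf15 did: over the lower 50% it was at log2 -0.11 (interval -0.19 to -0.03) between the 50th and 75th percentile and at 0.09 (0.0047 to 0.18) between the 75th and 90th.

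**Figure D5:**
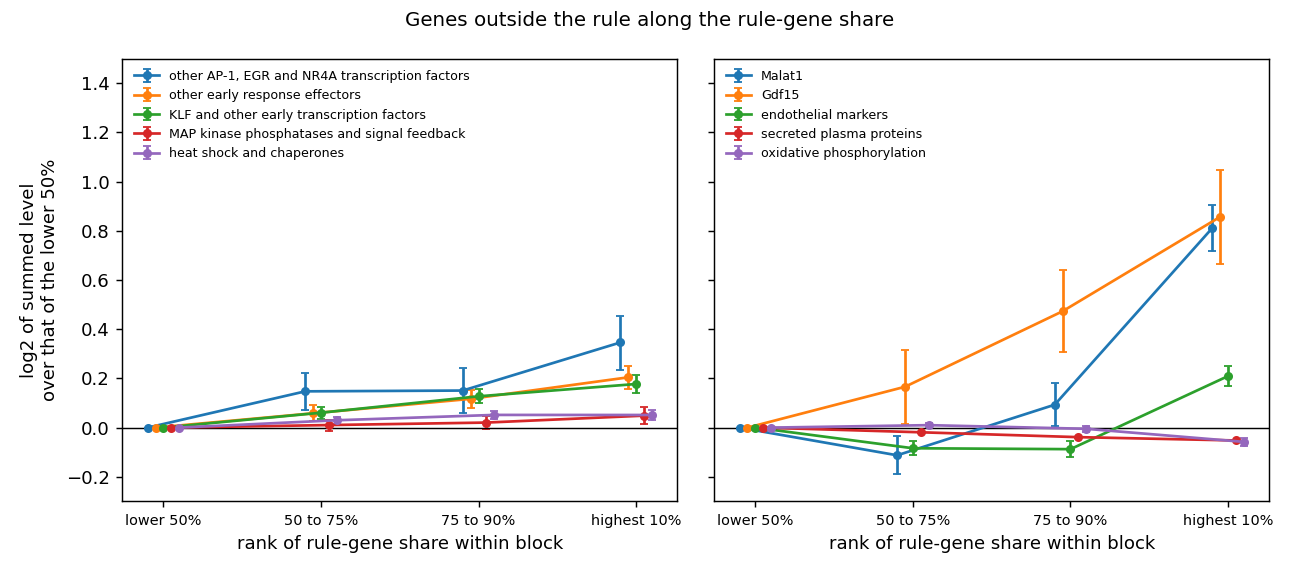
Log2 of the summed level over that of the lower 50%, with 95% counting intervals, in pairs ranked by rule-gene share within their block, from the lower 50% to the highest 10%; lists sum their members past the UMI minimum. Gdf15 is higher in each step and reaches 0.86, whereas Malat1 and the endothelial markers are at 0.81 and 0.21 in the highest 10% and between -0.11 and 0.09 in the middle bins.

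With separate intervals and the pooled direction in at least 3 of 4 blocks, 2.82% of genes lay on the higher and 0.741% on the lower side, and the 10 with the largest ratios each way were named. Beside Malat1, those named as higher had 47 to 123 UMIs in high pairs and log2 ratios from 0.71 to 0.87. They were Ehd4 (endocytic recycling), Mms19 (assembly of iron-sulphur proteins), Ddx20 (an RNA helicase of the SMN complex), Pias4 (a SUMO ligase), Tecpr1 (autophagosome maturation), Fnbp4 (a formin-binding protein), Olfm1 (a secreted olfactomedin), Ddx23 (a spliceosomal RNA helicase) and Myst3 (a histone acetyltransferase). Mms19 was at log2 0.09 when Jun was left out of the choice, against 0.87 with all 8 genes. The 10 named as lower ran from log2 -0.37 to -0.92. Beside Cycs they held Timm23 (import into mitochondria), Rhot1 (mitochondrial transport), Vps4b (membrane scission by ESCRT), Mudeng (an adaptor complex subunit), the zinc-finger genes Zfp68 and Thap7, and Gm16573, 4933434E20Rik and 1810013L24Rik. Mudeng, the lowest, had 19 UMIs in high pairs and 197 in low pairs (-0.92, interval -1.68 to -0.24).

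Endothelial marker RNA made up a larger share of UMIs in high than in low pairs, but not in pairs of middle rule share. Of 24 endothelial markers 23 passed the UMI minimum, 21 of them had a ratio above 0, as 61.6% of all genes tested did, and their median log2 ratio was 0.19 against 0.05 for all genes tested. Their summed level ran from 1072 to 1474 per 1000000 over the blocks of high pairs (median 1237) and from 879 to 1205 in low pairs (median 1047), higher in high pairs in 15 of 15 blocks (log2 0.21, interval 0.17 to 0.25). Over the lower 50% it was at log2 -0.08 (-0.11 to -0.06) in pairs between the 50th and 75th percentile of the rule share and at -0.09 (-0.12 to -0.05) between the 75th and 90th. Median gene UMIs per pair were 9919.5 in the lower 50%, 12064 and 11502 in these middle bins and 8538 in high pairs. Gene UMIs are also the divisor of the rule share, so depth took part in setting the bins. Levels are shares, so more endothelial RNA and less of other RNA cannot be told apart here. Egfl7, a secreted endothelial factor, was the one marker past 1.5-fold (0.61, 0.28 to 0.93; 0.805% of all genes tested), while the adhesion receptor gene Pecam1, which encodes CD31, was at 0.36 and the VEGF receptor gene Kdr at 0.26. The median over markers was 0.27 in the unused part of the UMIs and 0.04 with the parts swapped.

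The single non-parenchymal cells gave a level for the rule genes in endothelial cells without a hepatocyte. In 851 endothelial-like cells, from mice older than those of the pairs, the 8 genes stood at 1023 UMIs per 1000000, with Jun at 349, Junb at 145, Zfp36 at 144, Fos at 132 and Egr1 at 47.8. No cluster was hepatocyte-like. The endothelial share of pair UMIs, taken for each of 24 markers as its level in pairs over its level in endothelial-like cells and then as the median, was 2.79% in high pairs and 2.40% in low pairs. Multiplied by the single-cell level, it gave 28.5 per 1000000 for the 8 genes in high pairs and 24.5 in low pairs, beside measured levels of 694 in high and 141 in low pairs. For Jun the product was 9.71 in high pairs, beside a measured 258, and for Egr1 1.33, beside 46.4. For Fos it was 3.67 in high pairs and 3.16 in low pairs, beside measured levels of 15.5 in high and 2.60 in low pairs. In low pairs the measured level lay under the product, which the choice of pairs favours. The choice set the measured levels of both groups, while the product takes an average endothelial cell. Over all pairs, without a choice, the product was 24.2 for the 8 genes beside a measured 288. For Fos it was 3.11 over all pairs, beside a measured 5.77.

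Markers of other cells were sparse. Kupffer cell markers summed to 71.8 per 1000000 in high pairs (29.7 to 93.0 over the blocks) and 75.5 in low pairs (66.0 to 81.0). The 15 monocyte, neutrophil and dendritic cell markers had 12 UMIs in high pairs and 103 in low pairs, with Ccr2, Csf3r and Xcr1 at 0 in both. The 17 T, NK and B cell markers had 24 UMIs in high pairs and 145 in low pairs, with Cd3d, Nkg7 and Cd79a at 0 in both. Cholangiocyte markers had 57 UMIs in high pairs and 203 in low pairs (log2 0.62, interval 0.17 to 1.05), with Krt7 and Krt19 at 0 in both. Stellate cell markers were at log2 0.18 (0.02 to 0.34) with Acta2 at 0 in both, markers of cycling cells at 0.34 (0.16 to 0.51), and erythroid markers at 0.02. The cycling markers were higher in high pairs in 8 of 15 blocks. Their block medians were 59.4 in high and 54.9 in low pairs, and the highest block of high pairs was at 203. Only 2 of the 12 cycling markers passed the UMI minimum, with a median log2 ratio of 0.09. The hepatocyte markers Alb, Ttr and Cps1 and the 9 others listed were at 112772 per 1000000 in high pairs and 118832 in low pairs. The part of these cell types in the ratios was not tested. With high and low pairs taken within the same block, landmark tertile and depth, the median log2 ratio was 0.35 for other AP-1, EGR and NR4A factors, 0.26 for other early effectors and 0.17 for endothelial markers.

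Pericentral landmarks were higher in high pairs in some blocks. Glul, encoding glutamine synthetase of the innermost pericentral hepatocytes, ran from 108 to 2080 per 1000000 over the blocks of high pairs (median 173) and from 109 to 555 in low pairs (median 210), so its median block was lower in high pairs. Its summed ratio was log2 0.81 (interval 0.74 to 0.88), with the pooled direction in 9 of 16 blocks, and 0.19 when high and low pairs were taken within the same landmark tertile. The glutamate transporter gene Slc1a2 had log2 1.20 in the same direction in 8 of 14 blocks, and 0.51 within tertiles. With Jun left out of the choice, Glul had log2 0.42 and Slc1a2 0.33.

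A few wells carried a further set of transcripts. Of 8 interferon response genes, listed after their values were seen, 6 were at least 1.5-fold higher in high pairs, as 0.805% of all genes tested were. Their summed level was higher in high pairs in only 6 of 15 blocks, with block medians of 119 in high and 129 in low pairs. Rsad2 (viperin) had 350 UMIs in high pairs and 430 in low pairs, log2 2.16, and Ifit1 207 in high and 387 in low pairs, log2 1.55. The chemokine gene Cxcl10 (1.44) and Oasl1 (1.11) followed, while the regulator Irf7 was at -0.06. These UMIs sat in few pairs, since 5 high pairs with at least 20 interferon UMIs held 716 of the 1207 in the high group (59.3%), and 14 low pairs held 803 of 3591 (22.4%). Without the 3 pairs of each group that held most UMIs of the gene, Rsad2 was at 0.18, Cxcl10 at 0.18, Oasl1 at 0.37 and Ifit1 at -0.46. Such pairs made up 1.07% of high pairs (exact interval 0.347 to 2.47%) and 0.604% of low pairs (0.331 to 1.01%), intervals that cover counting error over wells of 1 pooled sample.

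The acute-phase genes Saa1 and Saa2, near-identical copies whose reads may be shared, and the iron-binding Lcn2 likewise rested on few pairs. Saa2 had 2862 UMIs in high pairs, 1831 of them in 3 pairs, and 8888 in low pairs, 1630 of them in 3 pairs. The pooled log2 ratios were 0.82 for Saa2, 0.59 for Saa1 and 0.61 for Lcn2. Without the second block of wells, which held 7 high and 34 low pairs, they were -0.44, -0.25 and -0.52. Over the 15 blocks with at least 100 pairs the median level of Saa2 was 22.6 per 1000000 in high pairs and 27.2 in low pairs.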

How the data were processed

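Transcripts were counted in wells of hepatocyte pairs and of single non-parenchymal cells, prepared with MARS-seq per the labels' protocols. The deposited tables hold raw counts, whole numbers of UMIs per gene and well, which the authors did not normalize. The submitters' processing notes name bcl2fastq 2.15.0.4 and genome build mm9. How reads were aligned, annotated and assigned to strands is not given in the sources used here. Spike-in rows (92, holding 0.715% of UMIs in the pairs) were left out, and 4918779 gene UMIs in high pairs, 26913619 in low pairs and 56976156 in all pairs remained, at 2423 to 49311 per pair.

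UMIs were summed per group and divided by the total without the 8 rule genes. Levels have exact Poisson intervals, log2 ratios exact conditional binomial intervals and shares exact Clopper-Pearson intervals, all at 95%, from Python 3.11.15 with scipy 1.17.1. PCR duplicates are collapsed in UMIs, but molecules of 1 pair are not independent, so intervals cover counting error only. No source says which library or mouse a well came from, so each table counted as 1 sample, no test was made and genes were called by size (1.5-fold, at least 200 UMIs over both groups). The edgeR and DESeq2 fits considered for mapped wells were not run. Blocks of well numbers are not known to be libraries or mice. The 2 tables share 0 well names, and 0 columns of unmapped samples were left out.

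Named genes were the 8 rule genes, the 10 largest folds each way outside the rule with separate Poisson intervals and the pooled direction in at least 3 of 4 blocks holding at least 10 of their UMIs, and up to 4 members of each list with the largest fold. Of 501 listed symbols 499 were matched, including 5 under an earlier name. The members, the rule and the lists were chosen with earlier results of these data known. The lobule score set 13 pericentral against 12 periportal landmark genes, from a median of 134 UMIs per pair.

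Single cells with at least 300 UMIs (2692 wells, 1028 left out) were clustered with scanpy 1.11.5 and leidenalg 0.10.2 without the rule genes and named from markers. Doublets were not called, because wells were filled by sorting and pairs are doublets by design. Levels and intervals were checked on simulated counts. Alternatives changed the share of pairs chosen, the blocks, depth, lobule position, cell content, scaling, UMI minimum, fold and rule genes.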

Additional observations from a re-analysis of the deposited data

How the results depend on the processing

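No paired analysis was possible because wells cannot be assigned to animals. The counts of genes at least 1.5-fold higher and lower in high pairs, 63 and 12, moved by over 1.5 times under the following choices: to 173 and 85 for the highest 5%, 19 and 1 for the highest 25%, 132 and 45 ranked over all pairs, 19 and 19 thinned to 5000 UMIs, 31 and 30 with levels from the unused part, 34 and 20 within landmark tertile and depth, 34 and 29 without Jun in the rule, 41 and 20 with median-of-ratios scaling, 355 and 181 with at least 50 UMIs, 6 and 0 with at least 1000, 1941 and 703 with no minimum, and 5 and 0 at 2-fold. Genes lower alone numbered 23 with the parts swapped, 21 within landmark tertiles, 45 by the mean over pairs, and 26, 24, 23, 24 and 26 without Junb, Egr1, Ier2, Btg2 and Zfp36 in the rule. Leaving out 1 block gave 50 to 72 higher and 9 to 21 lower; the counts lower were 20, 19 and 21 without blocks 4, 6 and 10. The rule genes' summed log2 ratio, 2.30, was 2.52 for the highest 5%, 1.93 for the highest 25%, 2.40 over all pairs, 2.71 thinned, 0.68 and 0.67 in the unused parts, 2.19 within tertiles and 2.07 within tertile and depth. The median of other early effectors was 0.076 thinned and 0.078 in the unused part, but 0.22 with the parts swapped. Settings that change the UMIs summed or the minimum can also change how many genes were tested, so the counts of genes are not rates. The causes were not tested.

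Of the 20 genes named by fold, 20 kept their direction except 18 when thinned and 19 in the unused part. Timm23 was at 0.32 when thinned and Ddx23 at -0.25 in the unused part. The 20 were picked from these same UMIs by size and by direction over blocks. Keeping the direction was thus favoured beforehand and is no separate check. Of the 20, 15 were past 1.5-fold, but 0 for the highest 25%, 3 without Jun and 7 without Zfp36 in the rule, 5 thinned, 7 in the unused part, 6 with the parts swapped and 7 within landmark tertile and depth. With f ranked over all pairs, Saa2, Saa1 and Lcn2 were at -1.95, -1.35 and -1.14; leaving out 1 block, they ran from -0.44 (without block 2) to 0.92, from -0.25 to 0.65 and from -0.52 to 0.79; and without the 3 richest pairs at -0.33, -0.18 and -0.090. By the mean over pairs Saa1 was at -0.041 and Lcn2 at -0.11, and Lcn2 was at -0.30 without pairs holding immune markers. Without Jun in the rule, Rsad2, Oasl1, Cxcl10 and Ifit1 were at -0.18, -0.18, -0.086 and -0.034. Ifit1 was at -0.34 without interferon-rich pairs and -0.46 without the 3 richest. Alternatives that swap parts, drop the innermost or interferon-rich pairs, drop the 3 richest pairs, add depth or drop a rule gene for other genes were chosen after seeing the data. Depth limits the genes under 200 UMIs over both groups, among them Fos and Fosb, which were not called.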
